A study of Mus musculus with 8 samples.

Results

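Epithelial surfaces defend themselves with secreted and membrane-bound proteins that recognise, coat, starve or hold back microbes. Complement does this by a cascade of plasma and locally made proteins: C3 is its central component, and factor B (Cfb) joins a fragment of C3 to form the convertase of the alternative pathway. Lipocalin 2 (Lcn2) binds the siderophores with which bacteria take up iron, serum amyloid A3 (Saa3) is an acute phase protein made outside the liver, Slpi encodes a secreted inhibitor of neutrophil proteases, Pigr the receptor that carries polymeric IgA through epithelial cells, and Cd14 the co-receptor that hands lipopolysaccharide to TLR4 and MD-2. Many of these genes are induced in inflamed epithelium through NF-kB, its partner IkB zeta (Nfkbiz) and C/EBP factors, and several of them are known from inflamed or malignant pancreatic ducts.

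These 7 genes, Lcn2, Saa3, C3, Cfb, Slpi, Pigr and Cd14, were taken by symbol from a table of 39179 genes, and each matched 1 row. They were measured in mouse pancreatic epithelial cancer cells (strain FVB/B6 mix, with the alleles p48Cre, ROSA_rtTAL+ and p53L+ in both arms) that express GFP. In this kind of model the p48 promoter drives Cre in the pancreatic lineage, and rtTA is a transcriptional activator that works in the presence of a tetracycline; the sources used here do not say whether such an inducer was in the culture. The cells shared a culture with RFP-labelled pancreatic stellate cells (PSC), the fibroblast-like cells of the pancreas, for 72 h in 0.5% dialyzed serum, and were then separated by flow sorting. In 4 libraries the culture had contained a neutralizing antibody to sonic hedgehog (SHH), a secreted ligand, at 20 µg/mL, and in 4 it had contained no antibody; no control antibody is named. The comparison asks what changes in the cancer cells when SHH is neutralized. The replicates are described as biological, and nothing says how the cultures were kept apart or whether the line is 1 clone, so p-values measure the spread between these libraries.

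Library totals ran from 14953255 to 15733280 counts with antibody and from 10009711 to 14602784 without, so depth differed between the arms (two-sided exact permutation p = 0.0286, n = 4 each, the smallest this design allows). Replicate 1 without antibody stood apart from the other 3 libraries of its arm, with a chi-square per degree of freedom between 9.26 and 11.2 against each of them. Its share of mitochondrial counts was 6.48%, against 4.10% to 5.02% in the other 7 libraries, and the part of this in the results that change without it was not tested. On the same chi-square measure replicate 4 differed from replicates 2 and 3 by 4.61 and 3.93; results below are given without these libraries where that matters. Epithelial markers summed to 7127.8 to 8171.8 CPM (counts relative to the library's TMM-adjusted total) over 10 genes in all 8 libraries, led by the keratin gene Krt18. Not all of them were abundant: Epcam stood at 22.8, Esrp1 at 4.35, Cldn4 at 2.95 and Cldn7 at 0.4 CPM. Epcam was the 1 epithelial marker that differed, and it rose with antibody (log2 fold change 0.28 ± 0.08 SE, edgeR adjusted p = 0.022). In sorted bulk RNA, fewer cells of a type and less RNA per cell cannot be told apart.

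The 7 genes fell into 2 that these cells transcribed and 5 that were close to silent in both arms. Cd14 stood at 40.4 RPKM (reads scaled to gene length and library total, the authors' values, mean of 8 libraries), the 92.1st percentile of the 21392 genes with at least 1 count. Cfb stood at 3.1 RPKM, near the middle at the 51.8th percentile. Saa3 followed at 0.124 RPKM, C3 at 0.0467, Slpi at 0.0406, Lcn2 at 0.0235 and Pigr at 0.00291, between the 2.0th and the 26.9th percentile. The lowest library of Cd14 (38.5 RPKM) lay above the highest of Cfb (3.83), and the lowest of Cfb (2.65) above the highest of Saa3 (0.434). Single libraries did not resolve the order among the remaining 5, because each of them was at 0 in at least 1 library. Summed over all libraries, C3 held 25 counts and Pigr 1. In no library did any of these 5 exceed 6 counts, and together they took 43 counts over all libraries. Such a level is common: 9810 of 22740 protein-coding genes in the table, 43.1%, never exceeded 6 counts.

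**Figure D1:**
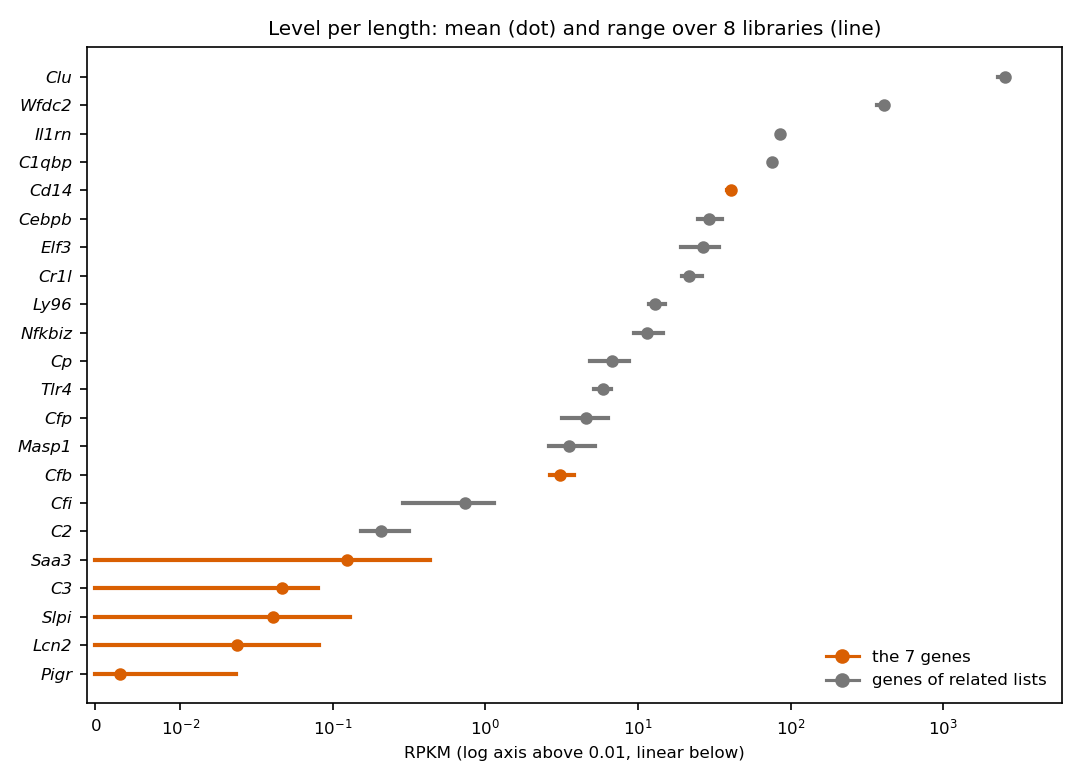
Level per length of the 7 genes (orange) and of genes of related lists (grey), as RPKM on an axis that is logarithmic above 0.01 and linear below. Dots are means and lines run from the lowest to the highest of 8 libraries; Cd14 sits at 40.4 and Cfb at 3.1 RPKM, while the other 5 reach down to 0.

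The sequence upstream of 3 of the near-silent genes is shown because these promoters carry recognition letters of the C/EBP factors, whose genes are described further on. Of the 7 genes, 5 have an entry in the RefSeq promoter table (GRCm38.p6). The 2 without an entry are Cfb and Cd14, the transcribed genes, so every promoter searched belongs to a near-silent gene. Whether a match goes with the level of a gene was not tested. The 250 bases before the start were searched for the C/EBP motif TTGCNNAA, the STAT motif TTCNNNGAA and the NF-kB consensus on both strands, and for TATAAA on the gene's own strand. A C/EBP match was found in 4 of the 5 (Lcn2, Saa3, C3 and Slpi, 1 each) and in 9.56% of 32851 promoters; Pigr had none. The other motifs were found in none of the 5, against 7.02% of all promoters for STAT, 7.25% for NF-kB and 7.59% for TATAAA, and no matches overlapped each other. A match is a description of letters and shows no binding. The sequences read 5′ to 3′ on the gene's strand, with the C/EBP match in capitals; all 3 genes lie on the minus strand, and Lcn2 is cut where the deposited table begins the gene.
Lcn2, chr2:32387798-32387989: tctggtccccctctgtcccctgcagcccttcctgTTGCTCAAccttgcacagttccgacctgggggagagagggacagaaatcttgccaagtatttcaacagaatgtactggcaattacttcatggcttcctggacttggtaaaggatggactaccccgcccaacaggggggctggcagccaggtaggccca
Saa3, chr7:46715677-46715926: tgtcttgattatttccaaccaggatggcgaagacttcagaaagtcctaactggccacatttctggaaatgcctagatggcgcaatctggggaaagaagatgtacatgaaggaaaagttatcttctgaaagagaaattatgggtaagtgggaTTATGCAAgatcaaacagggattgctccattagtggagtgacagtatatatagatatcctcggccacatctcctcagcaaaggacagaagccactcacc
C3, chr17:57228137-57228386: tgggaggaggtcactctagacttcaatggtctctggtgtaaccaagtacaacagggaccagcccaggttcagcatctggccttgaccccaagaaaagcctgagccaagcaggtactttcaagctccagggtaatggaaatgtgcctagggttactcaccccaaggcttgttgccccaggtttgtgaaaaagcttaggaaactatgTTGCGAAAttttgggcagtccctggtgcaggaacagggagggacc
In Lcn2 the match lay 216 to 209 bases before the RefSeq start, in Saa3 99 to 92 bases and in C3 45 to 38 bases.

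Neither of the transcribed genes passed the test for a difference between the arms. Of the 7 genes 2 had enough counts to be tested and 0 were called (edgeR's quasi-likelihood test, with p adjusted by Benjamini-Hochberg over all genes tested and called under 0.05), where 1144 of 13626 genes, 8.4%, were called in all. The count was also 0 at an unadjusted p under 0.05, and 0 with DESeq2, with limma voom and under each other alternative tried.

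Cfb is the alternative pathway's serine protease (ENSMUSG00000090231, chromosome 17, 34856374 to 34862518, minus strand, GRCm38). Replicates 1 to 4 with antibody held 138, 142, 157 and 117 counts, those without antibody 141, 75, 83 and 114. Scaled, these were 8.88, 9.02, 10.3 and 7.85 CPM with antibody and 11.0, 7.51, 7.77 and 7.80 CPM without. The arms overlapped, and the highest library of all was replicate 1 without antibody, whose other 3 libraries lay close together. The means were 9.02 ± 1.02 CPM with antibody and 8.52 ± 1.65 CPM without (SD, n = 4 each). As antibody over no antibody, the log2 fold change came to 0.07 ± 0.13 SE with an adjusted p = 0.798, a fold between 0.877 and 1.27 at 95%. With no-antibody replicate 1 left out the log2 fold change was 0.23 (adjusted p = 0.254), and without replicates 1 and 4 of that arm it was 0.24 (adjusted p = 0.284). Without replicate 1 the remaining libraries no longer overlapped, but only narrowly. The nearest were replicate 4 without antibody at 7.80 CPM and replicate 4 with antibody at 7.85 CPM. A predicted gene, Gm20547, overlaps both Cfb and C2 on the same strand and held 0 counts, so how reads shared by these genes were assigned cannot be told from the table. C2, the classical pathway's counterpart of Cfb and its neighbour, stood at 0.208 RPKM and was not called (log2 fold change -0.19, adjusted p = 0.804).

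C3 supplies the protein with which factor B acts (ENSMUSG00000024164, chromosome 17, 57203970 to 57228136, minus strand, GRCm38). Antibody libraries held 0, 1, 5 and 4 counts, libraries without antibody 1, 4, 4 and 6. The sums were 10 and 15 counts, or 0.163 CPM (95% exact Poisson interval 0.0781 to 0.30) and 0.312 CPM (0.175 to 0.514). The intervals overlapped, as did the libraries of the arms. Without replicate 1 of the arm without antibody the CPM values did not overlap (at most 0.329 with antibody, at least 0.375 without). The counts still did, with 5 in an antibody library and 4 in libraries without. Intervals and detection limits of this kind cover counting error only.

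Lcn2 was the 1 gene of the 7 whose arms did not overlap (ENSMUSG00000026822, chromosome 2, 32384633 to 32387797, minus strand, GRCm38). It had 0 counts in each of the 4 antibody libraries and 1, 1, 2 and 1 counts in the libraries without antibody, although the antibody libraries were the deeper ones. Among all genes with at least 1 count 9.83% did not overlap, and 4.54% did not overlap and were lower with antibody. The 5 counts without antibody came to 0.104 CPM (95% exact Poisson interval 0.0338 to 0.243). For the 0 counts of the antibody arm the same interval reaches 0.0601 CPM, and the detection limit is 0.0489 CPM (3 counts over the group). The level without antibody lay 2.13-fold above that detection limit, but its interval begins below the limit. No single library exceeded 2 counts, and after thinning all libraries to the smallest total the arms overlapped. When low genes were kept in the fit Lcn2 was not called (adjusted p = 0.147). A difference of Lcn2 was therefore not detectable at this depth.

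Saa3 (ENSMUSG00000040026, chromosome 7, 46711998 to 46715676, minus strand, GRCm38) was at 0, 0, 1 and 1 counts in the antibody libraries and at 3, 0, 1 and 1 in the others. The arms overlapped, and replicate 1 of the arm without antibody held the highest count. Without replicate 2 of that arm the CPM values parted by scaling alone. The nearest libraries then held 1 count each, at 0.0671 CPM with antibody and 0.0685 CPM without. The sums were 0.0326 CPM (95% exact Poisson interval 0.00395 to 0.118) and 0.104 CPM (0.0338 to 0.243), which overlap.

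Slpi (ENSMUSG00000017002, chromosome 2, 164354070 to 164389095, minus strand, GRCm38), the antiprotease, had 2 counts in replicate 1 with antibody and 0 in the other 3 antibody libraries, and 2, 1, 0 and 0 counts without. Replicate 1 was the highest library in both arms, with 2 counts each time. The sums were 0.0326 CPM (0.00395 to 0.118) and 0.0624 CPM (0.0129 to 0.182).

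Pigr, the IgA transporter (ENSMUSG00000026417, chromosome 1, 130826684 to 130852249, plus strand, GRCm38), had a single count in all 8 libraries, in replicate 3 without antibody. The 0 counts of the antibody arm have an exact Poisson interval that reaches 0.0601 CPM (detection limit 0.0489 CPM). The 1 count of the other arm has an interval of 0.000526 to 0.116 CPM. For Slpi and Pigr both arms were at or under 3 counts in sum, so no fold is given. In the fit without a filter none of the 5 near-silent genes was called (adjusted p = 0.147 to 0.799).

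Cd14 was by far the most abundant of the 7 and varied least (ENSMUSG00000051439, chromosome 18, 36725074 to 36726736, minus strand, GRCm38). Antibody libraries held 933, 961, 980 and 910 counts, and libraries without antibody 849, 666, 712 and 910. Scaled to library size these were 60.0, 61.0, 64.5 and 61.1 CPM with antibody and 66.2, 66.7, 66.7 and 62.3 CPM without. Replicates 1, 2 and 3 without antibody lay above every antibody library, and replicate 4 without antibody fell below replicate 3 with antibody, so the arms overlapped. The means were 61.7 ± 1.96 and 65.5 ± 2.12 CPM (SD, n = 4 each), a coefficient of variation of 3.18% and 3.24%, where that of Cfb was 11.3% and 19.4%. The log2 fold change came to -0.08 ± 0.05 SE with an adjusted p = 0.36, a fold between 0.876 and 1.01 at 95%. The arms did not overlap once no-antibody replicate 4 was left out (log2 fold change -0.11, adjusted p = 0.198) or replicate 3 of the antibody arm (-0.11, adjusted p = 0.355). The overlap rested on these libraries alone, so leaving out either parts the arms by construction and is not read as a difference. Per length, Cd14 exceeded Cfb by a ratio of 10.8 to 16.0 in the 8 libraries, 12.4 ± 1.16 with antibody and 14.1 ± 2.31 without (SD, n = 4 each).

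**Figure D2:**
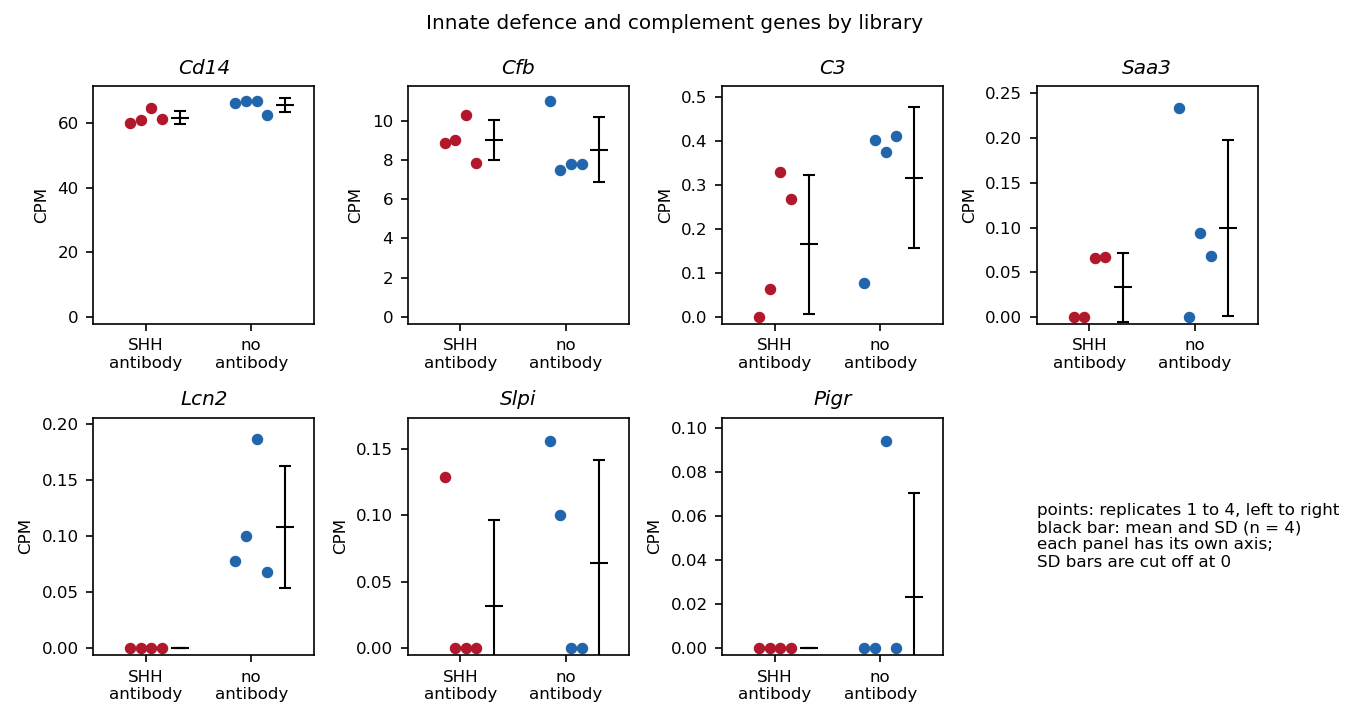
CPM of each of the 7 genes in the 4 antibody libraries (red) and the 4 libraries without antibody (blue), with mean and SD in black and an axis of its own in each panel. Cd14 lies between 60.0 and 66.7 CPM and Cfb between 7.51 and 11.0 CPM; the other panels show genes of at most 6 counts per library, where single counts set the points.

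Cd14 is best known from monocytes and macrophages, so leukocyte markers are set beside it. Of 20 such markers, 5 were at 0 in all libraries, Emr1, Mpo and Tyrobp among them. Ptprc, the pan-leukocyte gene CD45, had 1 to 9 counts per library, the macrophage growth factor receptor gene Csf1r 2 to 7 and the integrin gene Itgam at most 2, against 666 to 980 for Cd14. Cd68, a lysosomal gene used as a macrophage marker, was present in every library at 48 to 86 counts, a mean of 4.82 CPM, and was not called (log2 fold change 0.16 ± 0.16 SE, adjusted p = 0.62). The part of leukocytes in the values of Cd14 was not tested. The summed list ran from 126.8 to 133.8 CPM with antibody and from 145.8 to 165.0 CPM without, nearly all of it Mrc1, a mannose receptor gene at a mean of 135.6 CPM that fell (log2 fold change -0.29 ± 0.05 SE, edgeR adjusted p = 0.000654). The 26 stellate and fibroblast markers, cells that can make C3, summed to between 1484.8 and 1583.5 CPM with antibody and between 1500.0 and 1644.9 CPM without. Most of this was Vim, at 1076.5 CPM, followed by Fbln2 at 266.6 and Col5a1 at 112.3 CPM. The collagen genes Col1a1 and Col1a2 stood at 13.4 and 12.9 CPM, while Lum and Dcn were at 0 in all libraries. Of the 26 markers 14 had enough counts to be tested, of which 1 rose and 3 fell. Acinar markers summed to 2.96 to 5.91 CPM and endothelial markers to 16.4 to 20.3 CPM over all libraries. The part of such cells in the values of C3 was not tested.

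Over the 8 libraries, the expressed genes whose log2 CPM followed Cd14 most closely were Polr1e (Pearson r = 0.975) and Cdh13 (r = 0.961), out of 11282 compared. Those closest to Cfb were Timm8b (r = 0.966) and Brd9 (r = 0.952). These values are descriptions over libraries that share arm and depth, taken as the highest of many. For the near-silent genes no such comparison was made.

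Around C3 and Cfb, most complement genes were low as well and few differed. Of 49 complement components and regulators looked for 18 were tested, 1 rose and 2 fell, and the median log2 fold change was -0.06 beside 0.00 over all genes tested; over all genes 4.53% were called higher and 3.87% lower. Cfi, whose product cleaves the C3 fragment that factor B binds, rose from 1.01, 0.601, 0.843 and 1.30 CPM without antibody to 2.19, 2.22, 1.65 and 2.35 CPM with it (log2 fold change 1.10 ± 0.25 SE, adjusted p = 0.00737). These levels rest on 6 to 35 counts per library, and the arms did not overlap. Cfp, properdin, which stabilises the convertase of C3 and factor B, fell from 9.37 ± 1.32 to 6.42 ± 1.04 CPM (SD, n = 4 each; log2 fold change -0.54 ± 0.13 SE, adjusted p = 0.0111), a call lost when antibody replicate 2 was left out (adjusted p = 0.0514). Masp1, a protease of the lectin pathway, fell from 11.5 ± 2.14 to 7.91 ± 0.767 CPM (-0.52 ± 0.12 SE, adjusted p = 0.00913). The membrane regulators of the C3 convertase were not called: Cr1l stood at 21.6 RPKM and Cd55 at 0.689 RPKM, with log2 fold changes of -0.09 and 0.06. Clu, clusterin, an inhibitor of the terminal complex, was the most abundant gene of the list at 2534.1 RPKM, with a log2 fold change of 0.17 ± 0.05 SE that missed the threshold (adjusted p = 0.0522). It was called with DESeq2 (adjusted p = 7.6e-05) and limma voom (adjusted p = 0.0044), without a filter (adjusted p = 0.0201), with the stricter filter (adjusted p = 0.0483), and without replicate 1 (adjusted p = 0.00488) or replicates 1 and 4 (adjusted p = 0.00766) of the arm without antibody.

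The relatives of Saa3, Lcn2 and Slpi showed the same contrast between a few expressed genes and many silent ones. Of 30 acute phase genes 6 were tested and 14 had no count in any library, Saa1 and Saa4 among them. Cp, ceruloplasmin, a copper-carrying ferroxidase, was the 1 that was called: it rose from 51.8 ± 4.47 to 77.8 ± 4.58 CPM (SD, n = 4 each; log2 fold change 0.58 ± 0.06 SE, adjusted p = 2.32e-06), with no overlap. Cp overlaps Hps3 on the other strand, and the sources used here do not say if counting was by strand. Of 53 antimicrobial and antiprotease genes 9 were tested and 1 rose, Serpinb1a, an inhibitor of neutrophil proteases (log2 fold change 0.48 ± 0.10 SE, adjusted p = 0.0044); the median of the 9 was 0.37. Wfdc2, which shares the whey acidic protein fold with Slpi, stood at 406.6 RPKM where Slpi stood at 0.0406 RPKM, and its fold was 1.01, between 0.935 and 1.08 at 95% (adjusted p = 0.954). Slc22a17, a receptor of lipocalin 2, stood at 0.606 RPKM and was not called (adjusted p = 0.28).

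Beside the single count of Pigr, other genes of IgA transport were present. Of 13 such genes 6 were tested, with a median log2 fold change of 0.10, and 1 rose: Mal2, which epithelial cells need for transport across the cell, went from 26.3 ± 0.816 to 31.7 ± 0.775 CPM (SD, n = 4 each; log2 fold change 0.27 ± 0.06 SE, adjusted p = 0.00874). The immunoglobulin genes Igha and Ighm had 0 counts.

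The partners of Cd14 were expressed and, like Cd14, not called. Of 36 genes of the Toll-like receptor pathway 26 were tested and 0 were called by edgeR, by DESeq2 or by limma voom, with 4 at an unadjusted p under 0.05 and a median log2 fold change of 0.02. Tlr4, the signalling receptor, stood at 5.89 RPKM, and its log2 fold change of 0.19 ± 0.07 SE missed the threshold with an adjusted p = 0.085. Leaving out no-antibody replicate 1 (0.21, adjusted p = 0.0465), or its replicates 1 and 4 (0.27, adjusted p = 0.00915), made it a call. Ly96, which encodes MD-2, stood at 13.0 RPKM and was likewise not called (-0.02 ± 0.11 SE on the log2 scale, adjusted p = 0.936).

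**Figure D3:**
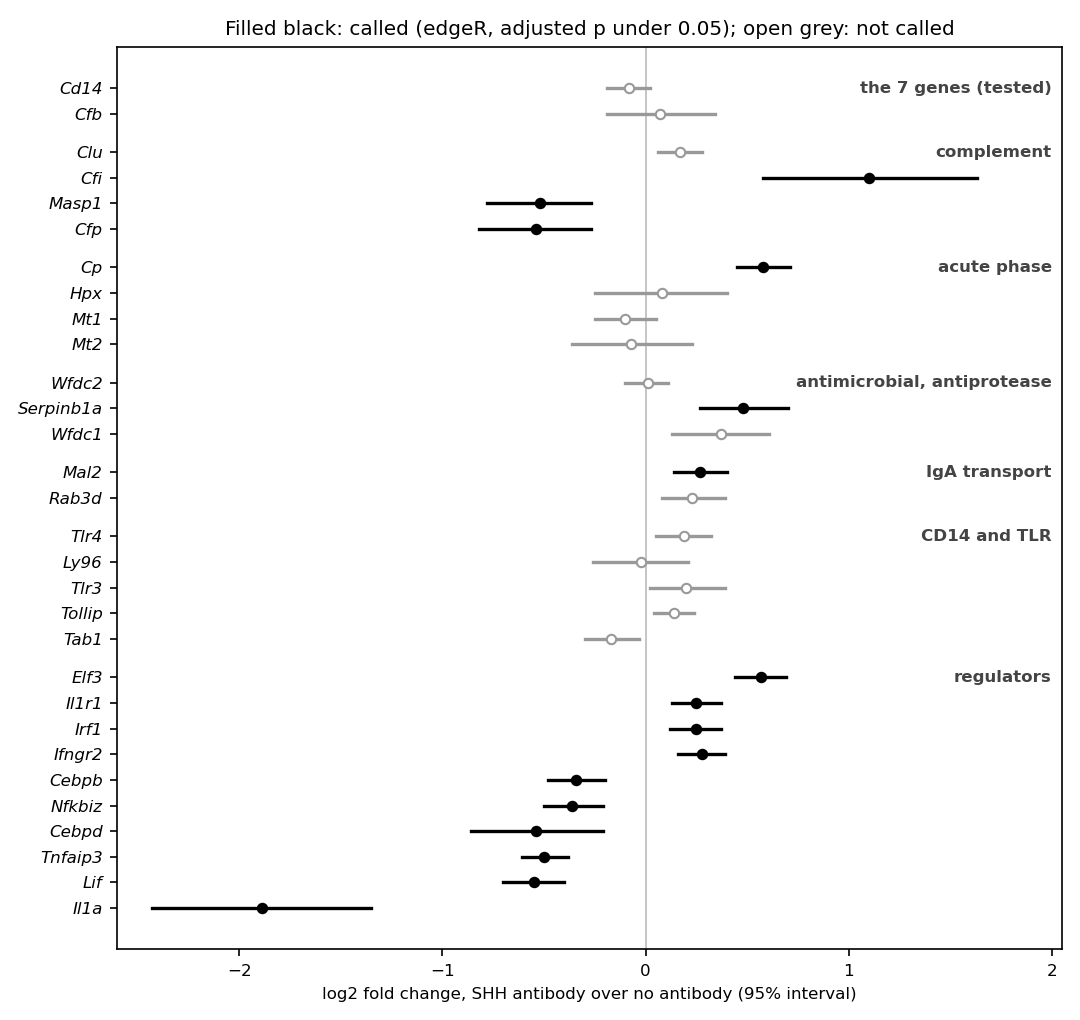
Log2 fold change, antibody over no antibody, with its 95% interval, for Cd14, Cfb and genes of the related lists; filled black marks genes called by edgeR at adjusted p under 0.05. The intervals of Cd14 (-0.19 to 0.02) and Cfb (-0.19 to 0.34) include 0.

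Regulators of the pathways that induce such genes differed between the arms in both directions. Of 39 genes of NF-kB, C/EBP, STAT3 and cytokine signalling 36 were tested, with a median log2 fold change of 0.01. Among these 4 rose (Elf3, Ifngr2, Il1r1 and Irf1) and 6 fell (Il1a, Lif, Tnfaip3, Cebpb, Nfkbiz and Cebpd). Over all genes tested 4.53% were called higher and 3.87% lower. The list was chosen with earlier results of these data known, so its count is a description. The call of Irf1 (0.25, adjusted p = 0.0153) was lost in 4 of 19 alternatives: after thinning (adjusted p = 0.0868), without antibody replicate 3 (0.0501) or 4 (0.066), and without no-antibody replicates 1 and 4 (0.0533). Il1a, the alarm cytokine interleukin 1 alpha, fell from 2.35 ± 0.493 to 0.637 ± 0.092 CPM (SD, n = 4 each; -1.89 ± 0.26 SE, adjusted p = 4.14e-05) and has an antisense gene, Gm14023. Tnfaip3, the NF-kB inhibitor A20, fell from 86.9 ± 3.40 to 61.6 ± 4.09 CPM (-0.50 ± 0.05 SE, adjusted p = 2.89e-06). Nfkbiz, Cebpd, Il1r1, Irf1, Wfdc2, Ly96, C2, Cr1l, Cd55, Saa1, Saa4, Igha and Ighm were named after their values had been seen. Nfkbiz, the cofactor through which NF-kB induces Lcn2, had 48.2, 47.4, 49.0 and 57.9 CPM with antibody and 74.0, 62.7, 58.5 and 63.3 CPM without. It fell with no overlap, though replicate 4 with antibody came close to replicate 3 without (log2 fold change -0.36 ± 0.07 SE, adjusted p = 0.00252). Cebpb, a C/EBP factor, fell from 49.4 ± 4.18 to 39.0 ± 2.88 CPM (SD, n = 4 each; -0.34 ± 0.07 SE, adjusted p = 0.00227); it overlaps Tmem189 on the other strand. Cebpd, another C/EBP factor, fell from 4.26 ± 0.582 to 2.91 ± 0.145 CPM (-0.54 ± 0.16 SE, adjusted p = 0.0358), a call lost in 10 of 19 alternatives. The deposited annotation labels the Cebpd entry a pseudogene. Elf3, an epithelial ETS factor, rose from 38.8, 42.5, 46.4 and 45.2 CPM without antibody to 61.8, 65.7, 68.0 and 60.4 CPM with it (0.57 ± 0.06 SE, adjusted p = 2.81e-06); a noncoding gene overlaps it on the other strand.

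**Figure D4:**
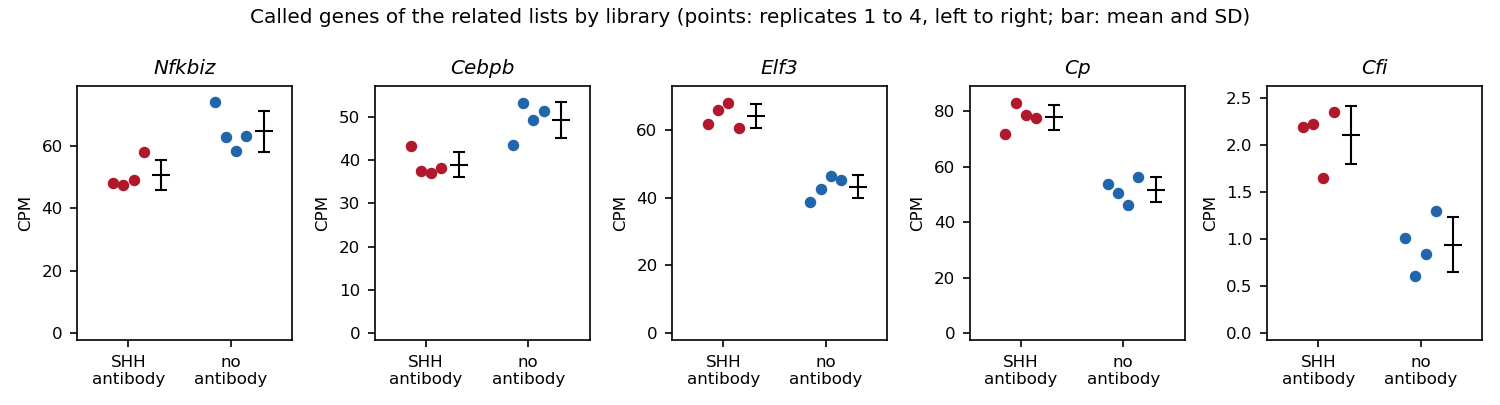
CPM of 5 called genes of the related lists in each library, with mean and SD in black (n = 4 per arm, antibody red, no antibody blue, each panel with its own axis from 0). Nfkbiz and Cebpb are lower and Elf3, Cp and Cfi higher with antibody, with no overlap between the arms in any of the 5.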

How the data were processed

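Polyadenylated RNA of sorted cells was sequenced from strand-specific libraries, per the labels' protocols. Reads were base-called with CASAVA 1.8.2 and aligned with TopHat2 2.0.9 to GRCm38, per the submitters' processing notes; the sources used here name no counting tool, annotation or strand setting. Raw counts per Ensembl gene and RPKM values were deposited by the authors. In 12746 genes checked, the deposited RPKM equalled count over length over library total within 1%, so they carry no further scaling.

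The count test was that of edgeR 4.0.16, run in R 4.3.3 (TMM, filterByExpr, quasi-likelihood F test, arm as the only term, Benjamini-Hochberg over 13626 genes). Genes below the filter are given as counts with exact Poisson intervals; 3 counts correspond to 0.191 to 0.30 CPM per library. The procedure was run on simulated counts of the tested genes, with dispersions taken from these data. The simulation held no library set apart from its arm and none of the near-silent genes, so it does not speak to either. Alternatives used limma 3.58.1 and DESeq2 1.42.0. Labels group the samples by treatment. A part of the shared genotype and 1 marker gene are not reported here. Members, the 6 lists and alternatives were chosen with earlier results of these data known; the rule names the 7 genes, per list the up to 4 tested genes with the smallest p and every called gene up to 6, and the 2 genes most correlated with each member.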

Additional observations from a re-analysis of the deposited data

Results flagged for a closer look

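Of 14 combinations of gene and arm 12 were tested with Dixon's criterion for 4 samples, which marks about 1 in 20 groups of continuous values by chance. In 5 of them 1 library lay far from the other 3. Replicate 1 without antibody was high for Cfb, at 11.0 CPM (141 counts), and low for C3, at 0.0779 CPM (1 count). Replicate 4 without antibody was low for Cd14, at 62.3 CPM (910 counts). The other 2 meet the criterion by construction, because a single library held any count: Slpi in replicate 1 with antibody, at 0.129 CPM (2 counts), and Pigr in replicate 3 without antibody, at 0.0937 CPM (1 count). Neither these nor C3, with 6 counts at most, can be read against that chance rate.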

How the results depend on the processing

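Cd14 stayed uncalled in all 19 alternatives, with log2 fold changes of -0.12 to -0.07 (adjusted p = 0.145 to 0.582), and so did Cfb, with 0.00 to 0.24 (adjusted p = 0.254 to 0.992). Where 1144 genes were called in all, the count was 675 with log2(RPKM + 1), 670 with log2(RPKM + 0.1), 679 to 1485 with 1 library left out (fewest without antibody replicate 2), and 2263 without replicates 1 and 4 of the arm without antibody. The number of the 7 genes with arms that do not overlap was 1 (Lcn2). It was 0 after thinning, 4 without replicates 1 and 4 of the arm without antibody (Lcn2, C3, Cfb and Cd14), and 1 to 3 without single libraries. The share of all genes that do not overlap is given for the full arms only, and arms of fewer libraries part more easily. Counts without libraries, and the overlaps described above without a library, therefore have no share beside them and are not read as differences. Without a filter 5 complement, 2 acute phase and 2 antimicrobial genes were called, in place of 3, 1 and 1. Over all genes 1348 of 21392 were then called, in place of 1144 of 13626. Without replicates 1 and 4 of the arm without antibody 2 acute phase and 3 Toll-like receptor pathway genes were called, in place of 1 and 0. Without single libraries the antimicrobial count was 1 to 2, that of the Toll-like receptor pathway 0 to 2. Causes were not tested. Of 32 other genes tried, 25 kept their side of the threshold throughout; among these Mt2 (-0.29 to 0.06), Ly96 (-0.09 to 0.09) and Wfdc2 (-0.04 to 0.03), all uncalled, changed sign. Same-numbered libraries of the arms did not deviate together (r = -0.0285 to 0.00662). These values show no pairing by number, but correlations over all genes tested cannot exclude one. With the replicate block 1005 genes and 0 of the 7 were called, and Cebpd lost its call (adjusted p = 0.0522). Depth limits what can be said of Lcn2, Saa3, C3, Slpi and Pigr.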
